A study of Homo sapiens with 12 samples.

Results

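The collagen, laminin and fibronectin genes of T47D cells were examined after depletion of PRMT1, a protein arginine methyltransferase, and after treatment with the progestin R5020. A gene was a member if its symbol was COL, a number, A and a number, or LAM, the letter A, B or C and a number, or FN1. This gave 57 of the 55765 genes in the count tables, namely 44 collagen chains, 12 laminin chains and fibronectin. T47D cells come from a luminal breast tumor and express the progesterone receptor. The groups were siRNA against PRMT1 with 10 nM R5020 for 6 h, the same siRNA with the ethanol vehicle, the control siRNA (siCT) with R5020 and siCT with ethanol, with 3 biological replicates each per the labels. All 4 groups were grown in RPMI medium with insulin and serum, and all carry an siRNA, since no untransfected cells were included in the samples used here. The sources used here give neither the time between transfection and harvest nor the number of siRNA sequences. By its title, the study concerns how PRMT1 affects gene expression in this line.

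Collagens are built as trimers of alpha chains, either 3 copies of a single chain or a mix of chains from the same type. Fibrillar types form the fibers of connective tissue, type IV forms the network of the basement membrane, and the other types decorate fibers, anchor them or span them. Laminins are trimers of 1 alpha, 1 beta and 1 gamma chain and are the main cell-binding proteins of the basement membrane. Fibronectin is a dimer that cells assemble into fibrils through integrins. In breast tissue the luminal cells are separated from the basement membrane by myoepithelial cells, and most fibrillar collagen comes from fibroblasts.

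Library totals ranged from 26783525 to 34120937 counts. PRMT1 mRNA, in CPM (counts scaled to a common library size, after TMM), stood at 6.98, 6.89 and 7.37 CPM in siPRMT1 R5020 and 7.92, 8.38 and 8.38 CPM in siPRMT1 ethanol, against 40.7, 50.7 and 37.5 CPM in siCT R5020 and 45.4, 37.4 and 29.7 CPM in siCT ethanol. All 6 siPRMT1 libraries were below all 6 siCT libraries. PGR, the progesterone receptor gene, was 4.10-fold lower with R5020 in siPRMT1 and 3.06-fold lower in siCT cells. A pair of siCT libraries stood apart, since mitochondrially encoded genes took 52.4% of the counts of siCT R5020 replicate 1 and 59.3% of siCT ethanol replicate 3, against 31.3% to 38.3% in the other 10. The main results are therefore given from all 12 libraries and without this pair. All 9 luminal markers had counts in every group, with a summed level of 11740 to 16220 CPM in siPRMT1 libraries and 6488 to 10518 CPM in siCT libraries.

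Members made up 0.0283% to 0.0346% of all counts in the 6 siPRMT1 libraries and 0.0483% to 0.0755% in the 6 siCT libraries. Their summed level was 285.4 to 312.0 CPM in siPRMT1 libraries, 444.5 to 524.4 CPM in the 4 siCT libraries outside the pair, 840.4 CPM in siCT R5020 replicate 1 and 1154 CPM in siCT ethanol replicate 3. The siPRMT1 libraries thus lay below every siCT library, and both libraries of the pair lay far above the other siCT libraries. In bulk RNA, fewer cells that make a transcript and less transcript per cell cannot be told apart.

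A total of 29 members had enough counts to be tested, 21 collagens, 7 laminins and FN1. Compared per kilobase of exon, over all 12 libraries, the laminin chains LAMB2 (10.8 CPM per kb) and LAMC1 (10.2) led, followed by LAMA5 (4.99), COL1A1 (3.97), LAMB1 (3.70), COL12A1 (3.54), COL4A5 (3.26), FN1 (2.17) and LAMA3 (1.17). COL18A1 (0.838), COL6A1 (0.798), LAMB3 (0.508) and COL4A6 (0.473) came next, and the other tested members lay lower. The most abundant alpha, beta and gamma laminin chains were thus LAMA5, LAMB2 and LAMC1, chains that in laminin-521 form a trimer. LAMA3 and LAMB3, chains of an epithelial laminin, were also detected.

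Several collagen types were represented by only some of their chains. COL1A1 had 14189 counts over the 12 libraries, while COL1A2, its partner in the usual type I trimer, had 3. Of type IV, COL4A5 had 13426 counts and COL4A6 had 1466, while COL4A1 and COL4A2, the chains of most basement membranes, had 46 and 11. COL6A1 had 1474 counts, against 97 for COL6A2 and 21 for COL6A3, the other chains of the classical type VI trimer. Of type IX, COL9A3 had 667 counts and COL9A2 had 566, while COL9A1 had 3. COL8A1 and LAMA1 had 0 counts of 377140734, which allows a level of up to 0.00795 CPM. The remaining 26 untested members had 1 to 63 counts in all and at most 13 in any library. They included COL3A1 with 18 counts, the fibrillar collagen that fibroblasts make with type I.

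**Figure D1:**
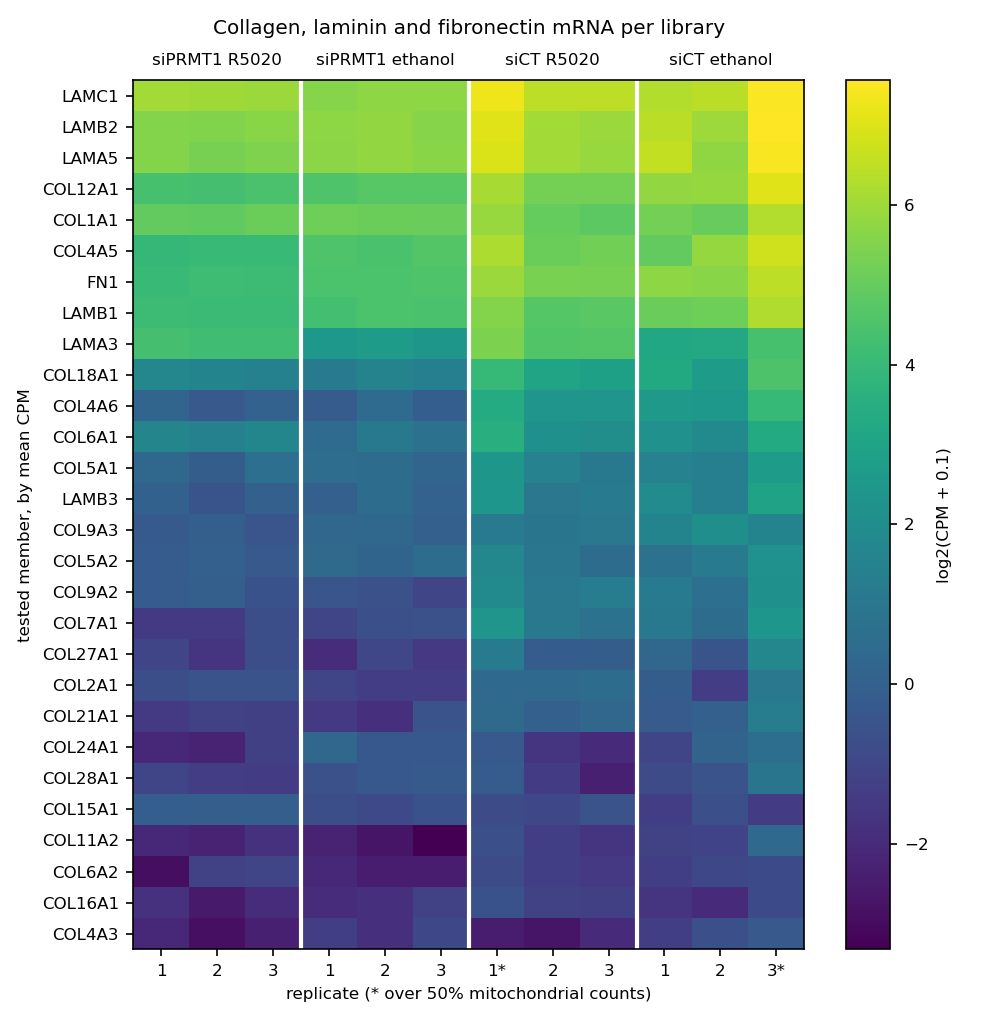
Level of 28 of the 29 tested members (rows, ordered by mean CPM) in each of the 12 libraries (columns, grouped by siRNA and treatment), as log2(CPM + 0.1). The siCT R5020 replicate 1 and siCT ethanol replicate 3 columns, marked with a star, are brighter than the other siCT columns in most rows, and LAMA3 is brighter with R5020 under both siRNAs.

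Depletion of PRMT1 went with lower mRNA of most tested members. In ethanol, 0 members were higher and 23 of 29 were lower (79.3%), where 32.8% of all 17727 tested genes were called, 13.6% higher and 19.2% lower. The median log2 fold change was -1.53 over the 29 members and -0.07 over all genes tested. In R5020, 0 were higher and 14 were lower (48.3%), where 25.7% of all genes were called, 11.5% higher and 14.2% lower, and the medians were -1.25 for members and -0.03 for all genes. All 14 members called lower in R5020 were among the 23 called lower in ethanol. The group means compared come from different libraries, but a single fit of all 12 gave both tests their spread. The calls are therefore not independent. A gene counts as called at an adjusted p under 0.05, from the quasi-likelihood test of edgeR with p-values adjusted by Benjamini-Hochberg over all genes tested. Members with too few counts could not be called, and a gene can pass the count filter through its high group alone, so these counts describe the tested members and not all 57.

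Without the pair of siCT libraries most changes were smaller in value. In that fit 31 members could be tested, the added ones being COL4A1 and LAMA4. In ethanol 23 were then lower and 0 higher, where 44.5% of all genes were called, 20.2% higher and 24.3% lower. Of the 23 called with all libraries, 22 were called again, at 1.42- to 5.91-fold lower, the exception being COL2A1. In R5020 21 were lower and 2 higher without the pair, where 38.9% of all genes were called, 19.3% higher and 19.6% lower, and all 14 earlier calls were among them, at 1.53- to 5.34-fold lower. The 2 higher were COL15A1 and LAMA4, the latter 3.94-fold (adjusted p = 0.00693) with 63 counts over the 12 libraries. Without the pair the medians over members were -1.04 in ethanol and -0.95 in R5020. With all 12 libraries, the groups did not overlap for 21 of 29 members in ethanol, all lower with siPRMT1. Of all genes, 23.8% were lower and 20.9% higher without overlap. In R5020, also with all 12 libraries, 23 of 29 members were lower and 1 was higher without overlap, where 26.0% and 25.6% of all genes were.

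**Figure D2:**
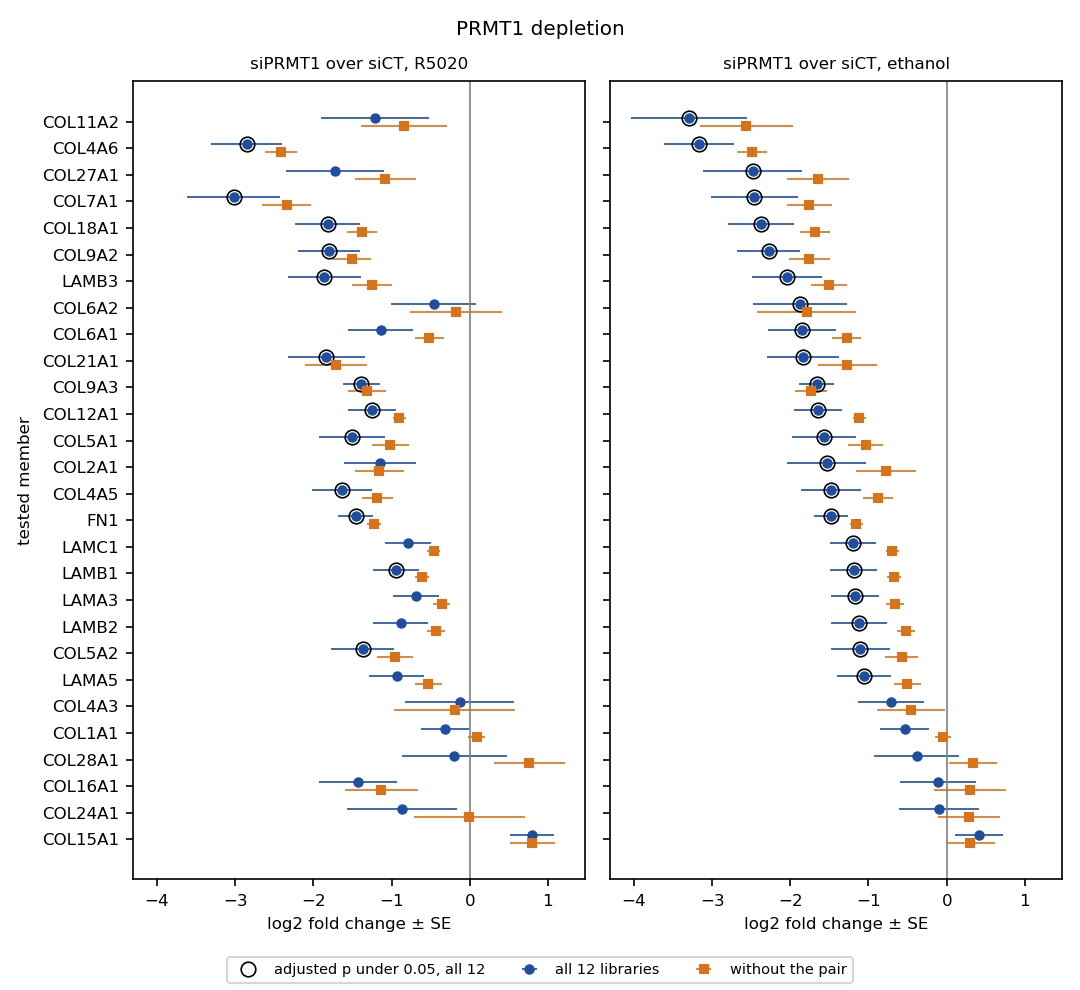
Log2 fold change of siPRMT1 over siCT with its standard error for 28 of the 29 tested members (rows, ordered by the change in ethanol), in R5020 (left) and in ethanol (right). Blue points are from all 12 libraries, orange squares are without the pair of siCT libraries, and rings mark members called with all 12. In ethanol all blue points but that of COL15A1 lie below 0, down to -3.30 for COL11A2, and the orange squares lie nearer to 0 for most members.

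Fibronectin fell with siPRMT1 under both treatments. FN1 stood at 22.3, 22.1 and 23.3 CPM in siPRMT1 ethanol, against 52.1, 49.1 and 88.0 CPM in siCT ethanol. With R5020 it stood at 16.4, 18.3 and 17.3 CPM in siPRMT1, against 61.2, 41.2 and 40.4 CPM in siCT. All 6 siPRMT1 libraries lay below all 6 siCT libraries. The fall was 2.79-fold in ethanol (log2 -1.48 ± 0.22 SE, adjusted p = 0.000537) and 2.75-fold in R5020 (log2 -1.46 ± 0.22 SE, adjusted p = 0.000759). Without the pair it was 2.22-fold and 2.34-fold, and the call held when any single library was left out. In R5020 FN1 had the smallest adjusted p of the 29 members.

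Of type IV collagen, the COL4A5 and COL4A6 chains, which assemble together in basement membranes of epithelia and smooth muscle, both fell. COL4A6 stood at 0.792, 1.28 and 0.843 CPM in siPRMT1 ethanol, against 5.61, 5.43 and 15.7 CPM in siCT ethanol, and at 1.07, 0.729 and 0.977 CPM in siPRMT1 R5020, against 10.3, 5.05 and 5.00 CPM in siCT R5020. Every siPRMT1 library was at or below 1.28 CPM and every siCT library was at or above 5.00 CPM. The fall was 8.99-fold in ethanol (log2 -3.17 ± 0.45 SE, adjusted p = 0.000346) and 7.22-fold in R5020 (log2 -2.85 ± 0.45 SE, adjusted p = 0.000991), or 5.62-fold and 5.34-fold without the pair. COL4A5 stood at 23.8, 21.4 and 25.1 CPM in siPRMT1 ethanol, against 30.4, 56.4 and 111 CPM in siCT ethanol, and at 15.2, 16.5 and 16.0 CPM in siPRMT1 R5020, against 75.4, 34.7 and 38.0 CPM in siCT R5020. The groups did not overlap under either treatment. COL4A5 fell 2.80-fold in ethanol (adjusted p = 0.0110) and 3.10-fold in R5020 (adjusted p = 0.00914), or 1.84-fold and 2.27-fold without the pair. Without siCT ethanol replicate 3 alone, the falls in ethanol were 5.43-fold for COL4A6 and 1.77-fold for COL4A5. The COL4A3 chain, at 0.298 ± 0.111 CPM in siPRMT1 ethanol and 0.514 ± 0.206 CPM in siCT ethanol (SD, n = 3 each), was not called (adjusted p = 0.214).

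COL4A5 and COL4A6 lie head to head on the X chromosome, and the upstream sequence of both is shown because the genes share it and their mRNAs fell together. In RefSeq (GRCh38.p14) their starts are 379 bases apart, taking the more upstream of the COL4A6 starts. The windows of 250 bases upstream of each start share 121 bases, read on opposite strands, which are in capitals. COL4A5 is on the plus strand (chrX:108439588-108439837), and the COL4A6 stretch is on the minus strand (chrX:108439498-108439708), cut where an annotated exon begins. The deposited counts were made on hg19, and these positions were not used for counting.
COL4A5: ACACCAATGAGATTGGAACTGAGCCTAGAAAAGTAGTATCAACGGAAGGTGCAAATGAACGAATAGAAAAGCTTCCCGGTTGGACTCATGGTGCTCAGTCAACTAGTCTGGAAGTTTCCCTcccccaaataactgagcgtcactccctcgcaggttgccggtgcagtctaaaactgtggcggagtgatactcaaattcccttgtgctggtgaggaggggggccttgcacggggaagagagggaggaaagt
COL4A6: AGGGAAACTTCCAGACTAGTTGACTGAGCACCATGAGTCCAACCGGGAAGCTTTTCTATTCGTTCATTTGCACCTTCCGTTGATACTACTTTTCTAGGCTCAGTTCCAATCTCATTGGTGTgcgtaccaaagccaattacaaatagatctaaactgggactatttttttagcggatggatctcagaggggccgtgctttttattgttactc
Neither of these 250-base windows holds a GC box (GGGCGG on either strand), which 42.6% of 35116 upstream windows of the same length hold. The window of the more downstream COL4A6 start (chrX:108438423-108438672) holds 1 GC box. Neither window shown holds a progesterone response element (GNACA and TGTNC with 3 bases between) or its core TGTTCT.

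Collagen XVIII and collagen XV, the basement membrane collagens whose C-terminal parts release endostatin and restin, were not alike in the test, since COL18A1 was called and COL15A1 was not with all libraries. COL18A1 stood at 2.05, 2.85 and 2.48 CPM in siPRMT1 ethanol, against 9.59, 6.37 and 22.7 CPM in siCT ethanol, and fell 5.18-fold (log2 -2.37 ± 0.42 SE, adjusted p = 0.00150). In R5020 it stood at 3.20, 2.92 and 2.61 CPM in siPRMT1, against 15.7, 8.11 and 7.12 CPM in siCT, and fell 3.53-fold (adjusted p = 0.00783). Its fall was 3.11-fold in ethanol without siCT ethanol replicate 3, and its exons overlap the opposite-strand gene SLC19A1. With all 12 libraries COL15A1 was the only tested member with a higher value with siPRMT1 under both treatments, and without the pair COL28A1 was also higher in value under both (0.33 in ethanol and 0.76 in R5020 on the log2 scale, neither called). COL15A1 stood at 0.519, 0.426 and 0.571 CPM in siPRMT1 ethanol, against 0.300, 0.531 and 0.273 CPM in siCT ethanol (adjusted p = 0.322), and at 0.840, 0.875 and 0.882 CPM in siPRMT1 R5020, against 0.484, 0.414 and 0.593 CPM in siCT R5020 (adjusted p = 0.0550). The R5020 groups did not overlap, and the difference was called without the pair (1.74-fold higher, adjusted p = 0.0455), with voom quality weights (adjusted p = 0.0051), with only the R5020 groups fitted (adjusted p = 0.045) and without any 1 of the siCT ethanol libraries (adjusted p from 0.0273 to 0.0474). COL15A1 was not called in R5020 with DESeq2 size factors in edgeR or with mitochondrial genes removed. Nor was it called there without siCT R5020 replicate 2, any siPRMT1 ethanol library, or siPRMT1 R5020 replicate 2 or 3. An antisense gene overlaps COL15A1, and the sources used here do not give the strand setting of the counting.

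All 7 tested laminin chains were lower with siPRMT1 in ethanol, and 3 of them were also called in R5020, LAMB3 and LAMB1 among these. LAMB3, a beta chain of epithelial laminin, stood at 0.901, 1.36 and 0.979 CPM in siPRMT1 ethanol, against 3.65, 2.51 and 7.55 CPM in siCT ethanol, and fell 4.12-fold (log2 -2.04 ± 0.45 SE, adjusted p = 0.00469). In R5020, LAMB3 stood at 0.937, 0.619 and 0.914 CPM in siPRMT1, against 5.17, 1.87 and 2.12 CPM in siCT, and fell 3.63-fold (adjusted p = 0.0127). The groups did not overlap under either treatment. Without the pair LAMB3 was 2.83-fold lower in ethanol and 2.38-fold in R5020, and its fall in ethanol was 2.73-fold without siCT ethanol replicate 3. The R5020 call was lost without siCT R5020 replicate 1 (2.40-fold, adjusted p = 0.0521) and without siPRMT1 R5020 replicate 2 (adjusted p = 0.0575).

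The chains of the broadly made laminins were also lower in ethanol. LAMC1, the common gamma chain, stood at 47.7, 51.7 and 52.4 CPM in siPRMT1 ethanol, against 79.7, 85.7 and 183 CPM in siCT ethanol (2.29-fold, log2 -1.20 ± 0.29 SE, adjusted p = 0.00872). LAMB1 stood at 20.0, 22.3 and 21.7 CPM in siPRMT1 ethanol, against 33.6, 35.2 and 77.6 CPM in siCT ethanol (2.28-fold, adjusted p = 0.00955). In both cases the groups did not overlap, and the 2 siCT ethanol libraries outside the pair stood at 79.7 and 85.7 CPM for LAMC1 and at 33.6 and 35.2 CPM for LAMB1. LAMB2 stood at 52.4, 54.7 and 48.4 CPM in siPRMT1 ethanol, against 86.5, 63.3 and 189 CPM in siCT ethanol (2.17-fold, adjusted p = 0.0288). LAMA5, the alpha chain of the laminins of adult epithelium, stood at 50.2, 55.2 and 49.7 CPM in siPRMT1 ethanol, against 93.4, 54.3 and 175 CPM in siCT ethanol (2.08-fold, adjusted p = 0.0344). Its groups overlapped, since siCT ethanol replicate 2 lay below siPRMT1 ethanol replicate 2. Without the pair the falls were 1.62-fold for LAMC1, 1.60-fold for LAMB1, 1.43-fold for LAMB2 and 1.42-fold for LAMA5, all called.

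Both LAMB2 and LAMA5 were less stable to single libraries. Without siCT ethanol replicate 3 they were 1.39-fold (adjusted p = 0.18) and 1.37-fold lower (adjusted p = 0.211). Each also lost its call when any of the 3 siPRMT1 ethanol libraries was left out, at 2.04- to 2.23-fold and adjusted p from 0.0703 to 0.0993, and LAMA5 did without siCT ethanol replicate 1 (adjusted p = 0.0518). In R5020, LAMB1 fell 1.93-fold (adjusted p = 0.0333), at 17.7, 16.8 and 17.2 CPM in siPRMT1 R5020, against 46.6, 25.9 and 27.1 CPM in siCT R5020. That call was lost without siCT R5020 replicate 1 (1.54-fold, adjusted p = 0.143) and without any of the siPRMT1 R5020 libraries (adjusted p from 0.083 to 0.101). LAMC1 (-0.79 ± 0.29 SE on the log2 scale), LAMA5 (-0.93 ± 0.35), LAMB2 (-0.88 ± 0.35) and LAMA3 (-0.69 ± 0.29) were not called in R5020 with all libraries, at adjusted p from 0.0616 to 0.102. They were called without the pair, at 1.28- to 1.44-fold lower. The exons of LAMB1 and LAMA5 overlap the opposite-strand genes DLD and ADRM1.

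Among fibrillar collagens, COL5A1, COL5A2, COL11A2, COL27A1 and COL2A1 were lower in ethanol, while COL1A1 and COL24A1 were not called. COL1A1 stood at 35.6, 34.3 and 33.5 CPM in siPRMT1 ethanol, against 39.4, 32.6 and 78.9 CPM in siCT ethanol, and at 31.0, 29.8 and 34.3 CPM in siPRMT1 R5020, against 58.4, 31.7 and 28.4 CPM in siCT R5020. The groups overlapped under both treatments, and only the libraries of the pair stood clearly above the siPRMT1 libraries. The log2 differences were -0.54 ± 0.31 in ethanol and -0.31 ± 0.31 in R5020 (SE), with adjusted p of 0.193 and 0.476. Without the pair they were -0.05 ± 0.11 and 0.09 ± 0.11. COL5A1, which with COL5A2 starts type I fibrils, stood at 1.39, 1.36 and 1.06 CPM in siPRMT1 ethanol, against 2.75, 2.51 and 6.40 CPM in siCT ethanol. It fell 2.97-fold (log2 -1.57 ± 0.41 SE, adjusted p = 0.0117), or 2.05-fold without the pair. COL5A2, at 1.26, 1.04 and 1.33 CPM in siPRMT1 ethanol and 1.58, 2.06 and 4.43 CPM in siCT ethanol, fell 2.15-fold (adjusted p = 0.0408). In R5020 COL5A1 fell 2.84-fold (adjusted p = 0.0196) and COL5A2 2.58-fold (adjusted p = 0.0256).

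The type V calls depended on single libraries. In ethanol COL5A1 was 1.98-fold lower without siCT ethanol replicate 3 and lost its call without siPRMT1 ethanol replicate 3 (2.75-fold, adjusted p = 0.0512). COL5A2 lost its call in 7 of 12 such fits, namely without siCT ethanol replicate 3 (1.44-fold, adjusted p = 0.22), without any siPRMT1 ethanol library (adjusted p from 0.0832 to 0.12) and without any siPRMT1 R5020 library (adjusted p from 0.0532 to 0.0553). In R5020 both lost their calls without siCT R5020 replicate 1 (2.04-fold, adjusted p = 0.0836, for COL5A1 and 1.95-fold, adjusted p = 0.105, for COL5A2). COL5A1 also did without siPRMT1 R5020 replicate 1 or 2 (adjusted p = 0.0584 and 0.0836), and COL5A2 without any siPRMT1 R5020 library (adjusted p from 0.0648 to 0.0842).

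The cartilage-type fibrillar chains were scarce in these cells. COL11A2 stood at 0.109, 0.0532 and 0 CPM in siPRMT1 ethanol, against 0.327, 0.354 and 1.20 CPM in siCT ethanol, without overlap, and fell 9.84-fold (log2 -3.30 ± 0.74 SE, adjusted p = 0.00551). That value was 5.71-fold without siCT ethanol replicate 3 and 18.6-fold without siPRMT1 ethanol replicate 1. COL27A1 stood at 0.164, 0.399 and 0.245 CPM in siPRMT1 ethanol, against 1.09, 0.619 and 3.17 CPM in siCT ethanol, and fell 5.59-fold (log2 -2.48 ± 0.64 SE, adjusted p = 0.0109), or 3.02-fold without siCT ethanol replicate 3. COL2A1, the main cartilage collagen, stood at 0.382, 0.293 and 0.299 CPM in siPRMT1 ethanol, against 0.818, 0.295 and 1.97 CPM in siCT ethanol (2.90-fold, adjusted p = 0.0332). Its groups overlapped, since siCT ethanol replicate 2 lay within the siPRMT1 values, and the call was lost without the pair (1.71-fold, adjusted p = 0.117). It was also lost in 5 of the 12 fits that left out 1 library, namely siCT ethanol replicate 1 or 3 (3.13- and 1.65-fold, adjusted p = 0.0557 and 0.165) or any siPRMT1 ethanol library (adjusted p from 0.0671 to 0.0941). In R5020 the 3 genes were not called with all libraries (adjusted p = 0.208 for COL11A2, 0.0597 for COL27A1 and 0.0837 for COL2A1). Without the pair COL27A1 (2.11-fold lower, adjusted p = 0.0467) and COL2A1 (2.23-fold lower, adjusted p = 0.0133) were called there. COL24A1, a further fibrillar chain, was not called with siPRMT1 under either treatment (adjusted p = 0.898 in ethanol and 0.382 in R5020).

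The anchoring and fiber-associated collagens held some of the strongest changes. COL7A1, which forms the anchoring fibrils below epithelial basement membranes, stood at 0.382, 0.532 and 0.544 CPM in siPRMT1 ethanol, against 1.99, 1.33 and 5.09 CPM in siCT ethanol, and fell 5.49-fold (log2 -2.46 ± 0.55 SE, adjusted p = 0.00568). In R5020 it stood at 0.258, 0.255 and 0.504 CPM in siPRMT1, against 5.01, 1.96 and 1.56 CPM in siCT, and fell 8.09-fold (log2 -3.02 ± 0.59 SE, adjusted p = 0.00332). The groups did not overlap under either treatment. The falls were 3.38-fold and 5.06-fold without the pair, 3.26-fold in ethanol without siCT ethanol replicate 3, and 5.10-fold in R5020 without siCT R5020 replicate 1. COL12A1, which binds type I fibrils, stood at 23.8, 26.6 and 26.6 CPM in siPRMT1 ethanol, against 55.3, 56.6 and 129 CPM in siCT ethanol, and fell 3.13-fold (log2 -1.65 ± 0.31 SE, adjusted p = 0.00210). In R5020 it stood at 20.8, 20.5 and 21.4 CPM in siPRMT1, against 70.8, 39.2 and 39.4 CPM in siCT, and fell 2.38-fold (adjusted p = 0.0114). Its calls held without any single library, and the falls were 2.17-fold and 1.87-fold without the pair.

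Both tested type IX chains, which coat cartilage fibrils, fell under both treatments. COL9A3 stood at 1.09, 1.17 and 0.898 CPM in siPRMT1 ethanol, against 2.92, 4.19 and 2.90 CPM in siCT ethanol, and fell 3.17-fold (log2 -1.66 ± 0.22 SE, adjusted p = 0.000216), the smallest adjusted p of any member in ethanol. The library of the pair did not stand apart here, and the fall was 3.33-fold without the pair. In R5020 it stood at 0.743, 0.875 and 0.630 CPM in siPRMT1, against 2.14, 1.79 and 1.97 CPM in siCT, and fell 2.62-fold (adjusted p = 0.00145). Exons of COL9A3 overlap the opposite-strand gene TCFL5. COL9A2 stood at 0.628, 0.559 and 0.381 CPM in siPRMT1 ethanol, against 2.10, 1.47 and 4.32 CPM in siCT ethanol, and fell 4.84-fold (log2 -2.28 ± 0.40 SE, adjusted p = 0.00147). In R5020 it stood at 0.808, 0.875 and 0.567 CPM in siPRMT1, against 3.59, 1.96 and 2.34 CPM in siCT, and fell 3.48-fold (adjusted p = 0.00591). Neither gene lost a call when 1 library was left out.

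Type VI, the beaded-filament collagen, was lower in ethanol. COL6A1 stood at 1.31, 2.02 and 1.55 CPM in siPRMT1 ethanol, against 4.50, 3.48 and 10.1 CPM in siCT ethanol, and fell 3.61-fold (log2 -1.85 ± 0.44 SE, adjusted p = 0.00715), or 2.35-fold without siCT ethanol replicate 3. COL6A2 stood at 0.137, 0.0798 and 0.0816 CPM in siPRMT1 ethanol, against 0.300, 0.413 and 0.437 CPM in siCT ethanol (3.68-fold, adjusted p = 0.0299). That call held without the pair (adjusted p = 0.0385) but was lost without siCT ethanol replicate 2 or 3 (adjusted p = 0.0581 and 0.0536) or any siPRMT1 ethanol library (adjusted p from 0.0551 to 0.095), at 3.34- to 4.49-fold. COL21A1, a collagen of the fiber-associated family, stood at 0.246, 0.186 and 0.599 CPM in siPRMT1 ethanol, against 0.763, 0.914 and 2.24 CPM in siCT ethanol, and fell 3.57-fold (adjusted p = 0.00989). Its fall was 2.33-fold without siCT ethanol replicate 3 and 5.66-fold without siPRMT1 ethanol replicate 3. In R5020 it fell 3.56-fold (adjusted p = 0.0159), a call lost without any of the siPRMT1 R5020 libraries (adjusted p from 0.0512 to 0.0602). COL6A1, at -1.14 ± 0.42 SE on the log2 scale in R5020, was not called there with all libraries but was without the pair (1.43-fold lower, adjusted p = 0.0418). COL16A1, COL28A1 and COL6A2 were not called in R5020 (adjusted p = 0.0508, 0.853 and 0.559), nor COL16A1 and COL28A1 in ethanol (adjusted p = 0.877 and 0.613).

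Among the markers of other breast cells, the summed basal or myoepithelial list was lower with siPRMT1, as most members were. Its 8 genes summed to 8.38 to 10.3 CPM in siPRMT1 libraries and 35.1 to 58.1 CPM in siCT libraries. ACTA2 made up most of it, at 6.36 to 8.06 CPM in siPRMT1 libraries and 33.7 to 55.5 CPM in siCT libraries, and fell 6.43-fold with siPRMT1 in ethanol (adjusted p = 2.26e-06). The defining keratins KRT14 and KRT17 reached at most 0.109 and 0.0818 CPM in any library, and KRT5 had 0 counts in all 6 ethanol libraries. With R5020 KRT5 went the other way than the list, at 1.49, 0.911 and 0.788 CPM in siPRMT1, against 0.0404, 0.0827 and 0.125 CPM in siCT, and OXTR had the higher value with siPRMT1 in ethanol, at 0.956, 1.14 and 0.898 CPM, against 0.627, 0.590 and 0.765 CPM with siCT. The 7 fibroblast genes summed to 1.52 to 3.94 CPM in siPRMT1 libraries and 2.10 to 7.16 CPM in siCT libraries, with POSTN at 0 in all. Endothelial markers summed to at most 0.164 CPM and leukocyte markers to at most 2.13 CPM. The part of ACTA2-expressing cells in the member changes was not tested.

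Of the other matrix genes, in 5 lists, more were called lower than higher with siPRMT1. In ethanol 9 of 11 tested basement membrane genes outside the members were lower with siPRMT1 and 0 higher, among them FREM2 (5.43-fold), HSPG2, which encodes perlecan (3.88-fold), and PXDN, the peroxidasin that crosslinks type IV collagen (3.59-fold). Of 22 genes for collagen modification, processing and secretion, 10 were lower and 1 higher. They included the lysyl hydroxylase PLOD1 (5.61-fold), the prolyl 3-hydroxylase LEPREL1 (6.42-fold) and the collagen chaperone FKBP10 (3.30-fold). Of 22 other glycoproteins and proteoglycans, 10 were lower, such as FBLN5 (6.68-fold) and FMOD (6.02-fold), and 2 were higher, one of them the proteoglycan VCAN (2.51-fold). Of 12 proteases and inhibitors, 5 were lower, among them TIMP3 (5.71-fold), TIMP2 (3.85-fold) and ADAMTS4 (2.78-fold), and 0 higher. Of 17 matrix receptors, 7 were lower, led by the fibronectin receptor chain ITGA5 (4.89-fold), and 2 higher. The medians of these lists were -1.70, -0.78, -0.76, -0.82 and -0.68 (log2), in the order named, beside -0.07 for all genes tested. Without the pair they were smaller in size, at -1.25, -0.50, -0.35, -0.42 and -0.27, beside -0.04 for all genes. The folds of single genes given here are from all 12 libraries. In R5020 8 of 11, 8 of 22, 7 of 22, 5 of 12 and 8 of 17 were lower, and 0, 2, 2, 0 and 1 were higher. The lists had 81.8%, 50%, 54.5%, 41.7% and 52.9% of their genes called in ethanol, where 32.8% of all genes were, and 72.7%, 45.5%, 40.9%, 41.7% and 52.9% in R5020, where 25.7% were. Without the pair, where 44.5% of all genes were called in ethanol and 38.9% in R5020, with 11, 22, 23, 12 and 18 tested, 8, 11, 11, 6 and 8 were lower and 1, 2, 5, 1 and 3 higher in ethanol, and 8, 9, 9, 7 and 10 lower and 0, 2, 5, 0 and 2 higher in R5020.

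With all 12 libraries, R5020 left most members uncalled and raised a single member, LAMA3. In siPRMT1 cells 1 of 29 members was higher and 1 lower (6.90%), where 15.4% of all genes were called, 9.30% higher and 6.08% lower. In siCT cells 1 was higher and 2 were lower (10.3%), where 13.0% of all genes were called, 7.59% higher and 5.43% lower. The median log2 fold change over members was -0.19 in siPRMT1 and -0.35 in siCT cells, beside -0.0036 and -0.04 over all genes. With all 12 libraries the share of members called was thus below that of all genes in both comparisons, but each share rests on few called members. Without the pair the share of members was above that of all genes in both comparisons. The order therefore depended on the pair, and no conclusion about the members is drawn from it.

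LAMA3, an alpha chain of epithelial laminin, was called higher with R5020 under both siRNAs. It stood at 20.3, 18.5 and 18.6 CPM in siPRMT1 R5020, against 5.41, 6.33 and 5.39 CPM in siPRMT1 ethanol. In siCT cells it stood at 43.0, 24.5 and 25.0 CPM with R5020, against 8.86, 9.38 and 20.8 CPM with ethanol. The groups did not overlap under either siRNA. The rise was 3.35-fold in siPRMT1 (log2 1.74 ± 0.31 SE, adjusted p = 0.00137) and 2.39-fold in siCT cells (log2 1.26 ± 0.30 SE, adjusted p = 0.0128). Without the pair it was 3.33-fold and 2.70-fold, and it was called in all 12 fits that left out 1 library. When only the siCT libraries were fitted, LAMA3 was not called (adjusted p = 0.127). Its level with siPRMT1 was lower than with siCT in ethanol (2.26-fold, adjusted p = 0.0119), and the interaction was not called (adjusted p = 1.00).

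LAMB3, the beta chain that pairs with LAMA3, did not pass the test with R5020. It averaged 0.823 ± 0.177 CPM in siPRMT1 R5020 and 1.08 ± 0.244 CPM in siPRMT1 ethanol (SD, n = 3 each). Its log2 difference was -0.38 ± 0.49 (SE) in siPRMT1 and -0.57 ± 0.42 in siCT cells (adjusted p = 0.723 and 0.463), and it was not called without the pair.

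The 250 bases upstream of the LAMA3 start in RefSeq (GRCh38.p14, plus strand, start at base 23873020 of chromosome 18) were searched because this was the only member called higher with all 12 libraries. The start lies inside the gene, and the gene also has a start farther upstream. No progesterone response element (GNACA and TGTNC with 3 bases between) and no core element TGTTCT were found on either strand, motifs that 0.328% and 12.4% of upstream windows hold. The AP-1 motif TGANTCA, held by 6.57% of windows, was found 2 times. The matches, in capitals with 10 bases on each side, lie at chr18:23872885-23872911 and chr18:23872941-23872967, within a GENCODE exon.
LAMA3 site 1: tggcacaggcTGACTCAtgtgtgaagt
LAMA3 site 2: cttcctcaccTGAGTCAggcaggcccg
A match describes the letters only, and binding was not measured in the data used here.

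**Figure D3:**
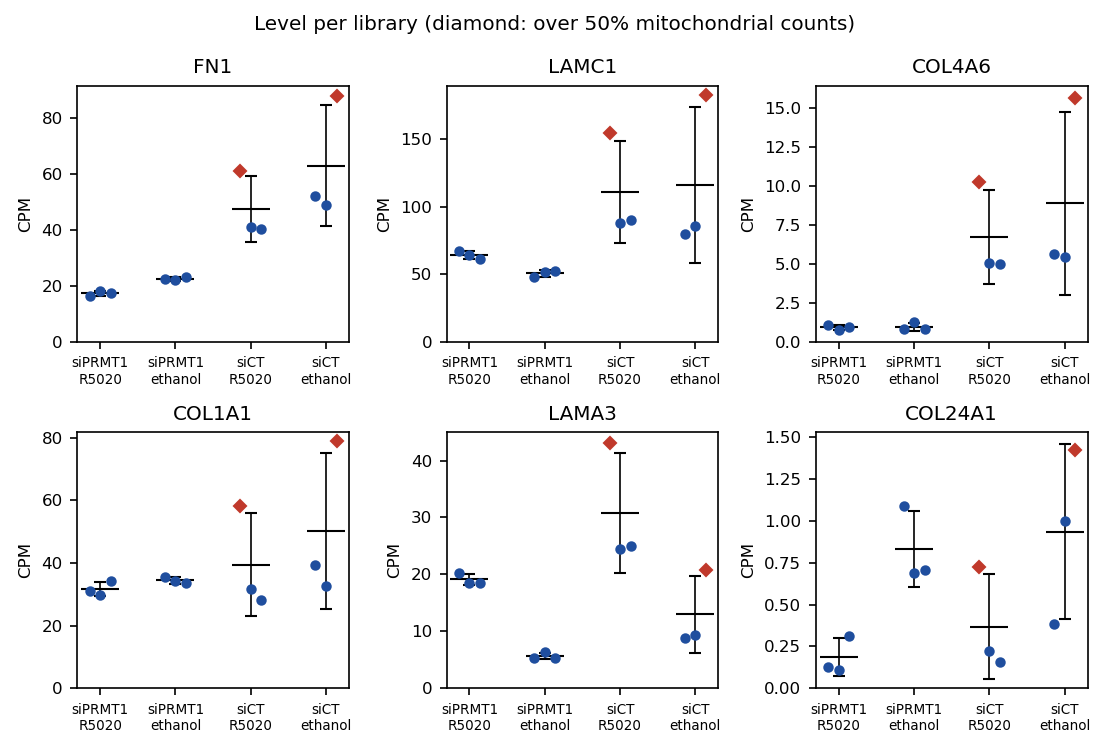
CPM per library of 6 members in the 4 groups, with the mean and SD of 3 libraries as bars and red diamonds for the pair of siCT libraries with over 50% mitochondrial counts. FN1 and COL4A6 are lower in all 6 siPRMT1 libraries, COL1A1 overlaps between the siRNAs, LAMA3 is higher with R5020 under both siRNAs, and COL24A1 is low in all 3 siPRMT1 R5020 libraries.

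The members lower with R5020 were scarce collagens. Of these, COL24A1 had 4, 3 and 10 counts in siPRMT1 R5020, against 40, 26 and 26 in siPRMT1 ethanol. COL4A3 had 2, 2 and 5 counts in siCT R5020, against 11, 18 and 13 in siCT ethanol. Both genes passed the count filter through their ethanol libraries, so for them the filter favored calls in this direction. COL24A1 stood at 0.129, 0.109 and 0.315 CPM in siPRMT1 R5020, against 1.09, 0.692 and 0.707 CPM in siPRMT1 ethanol, without overlap, and fell 4.35-fold (log2 -2.12 ± 0.62 SE, adjusted p = 0.0334). In siCT cells it stood at 0.727, 0.221 and 0.156 CPM with R5020, against 0.382, 1.00 and 1.42 CPM with ethanol, and was not called with all libraries but was without the pair (3.57-fold lower, adjusted p = 0.0457). Leaving out 1 siPRMT1 library moved the COL24A1 fall to between 3.65- and 6.72-fold, the highest without siPRMT1 R5020 replicate 3, and its call was lost without any siPRMT1 ethanol library or siPRMT1 R5020 replicate 1 or 2 (adjusted p from 0.0597 to 0.136). COL4A3, a type IV chain known from the kidney, stood at 0.0807, 0.0551 and 0.156 CPM in siCT R5020, against 0.300, 0.531 and 0.711 CPM in siCT ethanol, and fell 4.90-fold (log2 -2.29 ± 0.53 SE, adjusted p = 0.0101). In siPRMT1 cells it stood at 0.129, 0.0364 and 0.0945 CPM with R5020, against 0.300, 0.186 and 0.408 CPM with ethanol, a difference not called with all libraries (adjusted p = 0.0576) but called without the pair (adjusted p = 0.0375). The siCT call was lost without siCT R5020 replicate 2 (3.90-fold, adjusted p = 0.065), and an antisense gene overlaps COL4A3.

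COL9A3 stood at 2.14, 1.79 and 1.97 CPM in siCT R5020, against 2.92, 4.19 and 2.90 CPM in siCT ethanol, and fell 1.71-fold (log2 -0.77 ± 0.21 SE, adjusted p = 0.0268). Its fall was 1.90-fold without the pair, and the call was lost without siCT ethanol replicate 2 (1.48-fold, adjusted p = 0.0858) and without siCT R5020 replicate 2 (adjusted p = 0.126) or 3 (adjusted p = 0.089). In siPRMT1 cells it stood at 0.743, 0.875 and 0.630 CPM with R5020, against 1.09, 1.17 and 0.898 CPM with ethanol, and was not called (adjusted p = 0.228). The siPRMT1 groups did not overlap.

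All 12 libraries shared a single fit, so the spread of siCT libraries also entered the R5020 test in siPRMT1 cells. The common coefficient of variation between replicates was 0.046 (ethanol) and 0.075 (R5020) for siPRMT1, against 0.32 and 0.21 for siCT. Leaving out the pair removed no siPRMT1 library. In siPRMT1 cells FN1 had a log2 difference of -0.38 ± 0.22 (SE) before and -0.39 ± 0.079 after. Without the pair more small R5020 differences passed the test. In siPRMT1 cells 5 members were higher and 7 lower (38.7%), where 29.1% of all genes were called, 15.8% higher and 13.3% lower. In siCT cells 2 of 31 members were higher and 7 lower, where 19.9% of all genes were called, 10.9% higher and 8.95% lower. Under both siRNAs the share of members called was then above that of all genes, the reverse of the order with all 12 libraries. FN1 stood 1.31-fold lower with R5020 in siPRMT1 (adjusted p = 0.00274) and 1.25-fold lower in siCT cells (adjusted p = 0.0324), with non-overlapping groups in siPRMT1. COL12A1 was 1.23-fold lower in siPRMT1 and 1.43-fold in siCT cells. LAMB1 was 1.24-fold lower in siPRMT1 and 1.30-fold in siCT cells. COL28A1, at 0.321 ± 0.0580 CPM in siPRMT1 R5020 and 0.657 ± 0.0989 CPM in siPRMT1 ethanol, was 2.04-fold lower, and 2.75-fold lower in siCT cells. In siPRMT1 cells COL4A5 was also lower (1.48-fold), and COL6A1 (1.78-fold), COL15A1 (1.70-fold), LAMC1 (1.26-fold) and LAMA4 (5.34-fold) were higher. In siCT cells COL2A1 was higher (2.25-fold). With all 12 libraries none of these was called, and the groups did not overlap for 6 members higher and 10 lower in siPRMT1 cells, where 27.6% and 25.5% of all genes were, and for 1 higher and 2 lower in siCT cells, where 10.5% and 10.3% were.

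**Figure D4:**
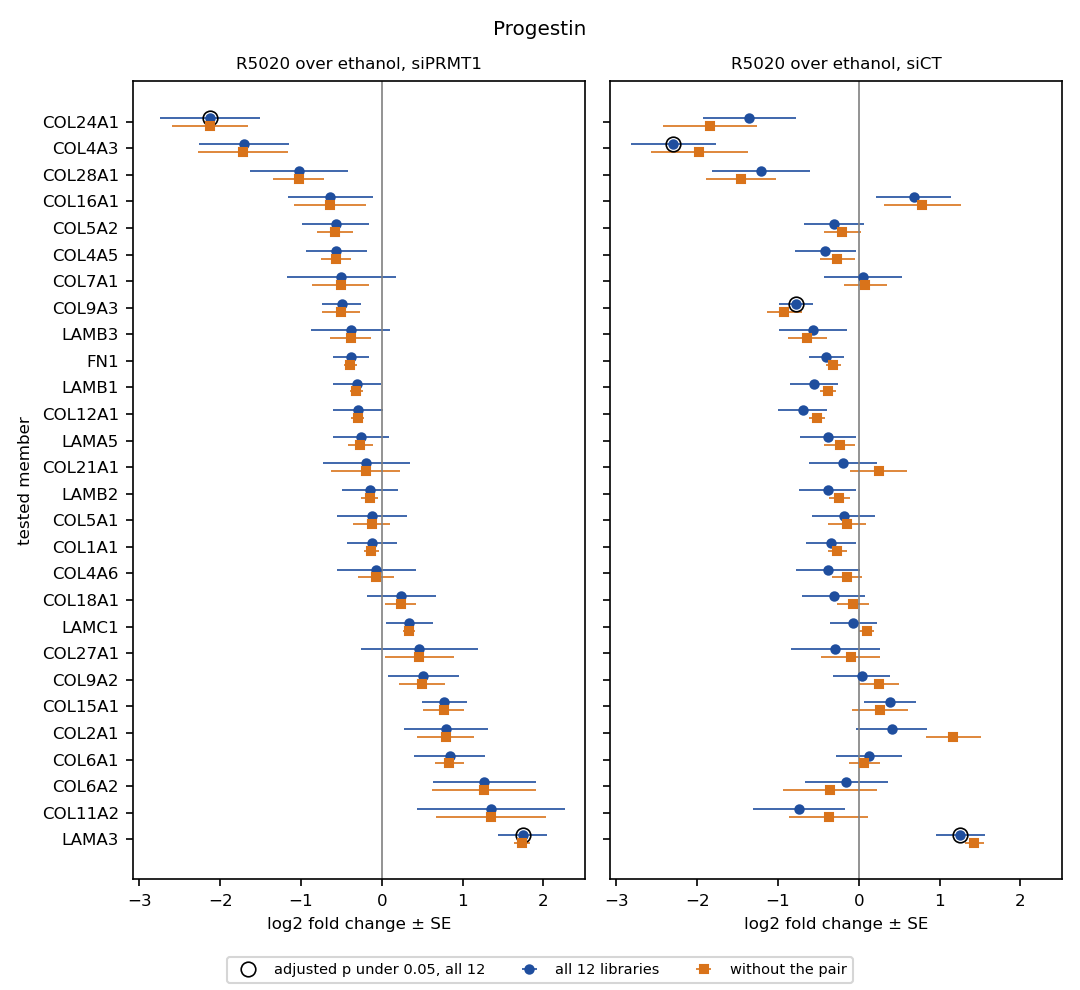
Log2 fold change of R5020 over ethanol with its standard error for 28 of the 29 tested members (rows, ordered by the change in siPRMT1 cells), in siPRMT1 cells (left) and siCT cells (right). Blue points are from all 12 libraries, orange squares are without the pair, and rings mark members called with all 12. LAMA3 is ringed on the right of 0 under both siRNAs, COL24A1 is ringed in siPRMT1 cells, and COL4A3 and COL9A3 are ringed in siCT cells.

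No difference between the siRNAs in the R5020 effect was called for any member. In this interaction, taken as the log2 effect of R5020 under siPRMT1 less the one under siCT, 0 of 29 members passed edgeR's test and 0 had an unadjusted p under 0.05, where 0.0790% of all genes were called. DESeq2 also called 0. Without the pair 0 of 31 were called and 3 had an unadjusted p under 0.05, where 0.779% of all genes were called. With all 12 libraries, values ran from -1.32 for COL16A1 to 2.08 for COL11A2 on the log2 scale, with SEs of 0.70 and 1.08. For these scarce genes, differences of this size were not detectable with these libraries. The SEs were smaller for LAMA3 and FN1, which had more counts. For LAMA3 the interaction was 0.49 ± 0.42 and for FN1 0.02 ± 0.31 (SE). LAMA4, tested only without the pair, had an interaction of 2.59 ± 0.81 (SE) there and was not called (edgeR adjusted p = 0.255).

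Single genes that act on collagens, and some matrix receptors, were called with R5020. P4HA2, a prolyl 4-hydroxylase subunit, rose 5.77-fold in siPRMT1 and 4.04-fold in siCT cells, and LOX, which crosslinks collagen, 3.48-fold and 3.50-fold. Of the list of 22 modification genes, 3 were higher and 0 lower in siPRMT1 (13.6%), where 15.4% of all genes were called, and 2 and 0 in siCT cells (9.09%), where 13.0% were, so this list was called no more often than all genes. The membrane protease MMP15 rose 4.83-fold in siPRMT1 and 7.41-fold in siCT cells, and ADAMTS4 fell 7.93-fold and 3.60-fold. THBS1 rose 3.91-fold and 3.78-fold, while VCAN fell 3.88-fold and 3.45-fold. Of the receptors, the hyaluronan receptor CD44 rose 4.45-fold in siPRMT1 and 2.86-fold in siCT cells, and the integrin chains ITGA2 (2.06- and 1.92-fold) and ITGB6 (2.19- and 2.92-fold) fell. Of the other basement membrane genes, 1 of 11 rose in siPRMT1 cells and 0 were called in siCT cells, where edgeR gave 2 with an unadjusted p under 0.05.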

How the data were processed

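The authors deposited raw read counts per gene, 1 table per library and 12 in all. The submitters' processing notes name Bowtie2 2.3.2.2, HTSeq 0.9.1, DESeq2 and hg19; the sources used here give neither the strand setting nor the gene annotation release. Starting from these counts, genes with too few counts were removed (filterByExpr), libraries were scaled by TMM, and edgeR 4.0.16 in R 4.3.3 fitted 1 mean per group over all 12 libraries. Comparisons were tested by quasi-likelihood with Benjamini-Hochberg adjustment over 17727 genes, with an adjusted p under 0.05 as the threshold. Standard errors are the log2 fold change divided by the square root of the F statistic. Levels are CPM after TMM; exon lengths for CPM per kb came from GENCODE on GRCh38, while the counts were made on hg19. Promoter sequences are RefSeq's.

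The procedure was tested on simulated counts with known changes. Replicates are biological per the labels. The members and gene lists were chosen with earlier results of these data known. Given in full were members called with or without the pair of siCT libraries with over 50% mitochondrial counts, up to 12 per comparison by adjusted p, FN1 and the leading members of each class; of the other matrix lists, up to 3 called genes per list and comparison. Alternatives were other scalings, removal of mitochondrial genes, no count filter, DESeq2 1.42.0, limma 3.58.1 voom with quality weights, a replicate block, fits of only the groups compared, and leaving out the pair or single libraries. Intervals on counts cover counting error only. 1 tested member is counted but not reported here.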

Additional observations from a re-analysis of the deposited data

How the results depend on the processing

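No member reversed direction while called. Without the pair of siCT libraries, 5 members were higher and 7 lower with R5020 in siPRMT1 cells, 2 and 7 in siCT cells, and 2 were higher with siPRMT1 in R5020. Of all genes, 29.1% and 19.9% were called with R5020 in siPRMT1 and siCT cells, and 19.3% were higher with siPRMT1 in R5020. With only the groups compared in the fit, 5 and 8 members were called with R5020 in siPRMT1 cells, 0 and 0 in siCT cells (where LAMA3 had an adjusted p of 0.127), and 1 and 22 with siPRMT1 in R5020. Of all genes, 7813 of 16759, 898 of 16975 and 5895 of 16743 were called in these comparisons. With voom quality weights 6 members were higher and 10 lower with R5020 in siPRMT1 cells, and 1 and 22 with siPRMT1 in R5020. Of all 17727 genes, 8179 and 9866 were called in these. Without a count filter, 4 members were higher with R5020 in siPRMT1 and 3 in siCT cells, and 1 was higher and 22 lower with siPRMT1 in R5020. Of the 31247 genes then tested, 2802, 2498 and 4938 were called. Removing mitochondrial genes changed no call of the members in the main test, with all 145 results over the comparisons the same. It gave 2 members higher with R5020 in siPRMT1 cells and 1 higher with siPRMT1 in R5020. The added calls were of members that did not pass the filter in the main fit. Of the 17797 genes then tested, 2718 and 4601 were called in these comparisons, in either direction. Library totals alone gave 3 members lower with R5020 in siPRMT1 cells, where 2064 of 17727 genes were called. They moved the median of all genes to 0.11 for siPRMT1 in ethanol and to -0.18 for R5020 in siPRMT1 cells. DESeq2 called 23 members lower with siPRMT1 in ethanol and 18 in R5020, where it called 6542 and 5335 of all 17727 genes in either direction. Leaving out 1 library at a time gave 18 to 24 lower with siPRMT1 in ethanol, and 0 to 2 higher and 8 to 22 lower in R5020, the extremes being siPRMT1 R5020 replicate 2 and siCT ethanol replicate 3. It gave 1 to 3 higher and 0 to 2 lower with R5020 in siPRMT1 cells, and 1 to 2 higher and 0 to 5 lower in siCT cells. These fits tested 18030 to 18147 genes. They called 3487 to 7827 genes for siPRMT1 in ethanol and 2332 to 6768 in R5020. For R5020 they called 1831 to 3820 genes in siPRMT1 cells and 1550 to 3029 in siCT cells. The causes were not tested. The deviations of same-numbered libraries from their group means had correlations of -0.67 to 0.29. With 3 libraries per group and the pair standing apart, these values cannot decide whether the numbers pair the libraries. With the replicate block, 0 members were lower with R5020 in siPRMT1 cells, 19 were lower with siPRMT1 in ethanol and 15 in R5020. Of all 17727 genes, 2278, 4936 and 3845 were called in these, in either direction. Of the 10 members under 1 CPM, 5 were called lower with siPRMT1 in ethanol and 1 in R5020 (medians -1.12 and -1.01, log2), against 18 and 13 of the 19 at 1 CPM or more (medians -1.57 and -1.37), and the part of depth in this was not tested.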

Other observations

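Some members with too few counts for the main test differed between groups in their summed raw counts (3 libraries per group). COL13A1, a transmembrane collagen, had 14 counts in siPRMT1 R5020 and 0 in siPRMT1 ethanol, at least 5.745-fold higher against a floor of 3 counts over the group (the lower 95% counting limit of the ratio was 4.08). In siCT cells it had 15 counts with R5020 and 1 with ethanol, a ratio of 14.3 (95% counting interval 2.2 to 603). COL13A1 thus had nearly all of its counts in R5020 libraries under both siRNAs. LAMA4, a laminin alpha chain of vessels and muscle, had 32 counts in siPRMT1 R5020 and 7 in siPRMT1 ethanol, a ratio of 5.63 (2.44 to 15.1), and 10 in siCT R5020 against 14 in siCT ethanol, a ratio of 0.682 (0.271 to 1.65). COL23A1, also a transmembrane collagen, had 12 counts in siCT R5020 and 0 in siCT ethanol, and 2 in siPRMT1 R5020 and 0 in siPRMT1 ethanol. Of these 12 counts, 7 lay in siCT R5020 replicate 1, a library of the pair, and 4 and 1 in replicates 2 and 3.

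With siPRMT1 in ethanol, COL4A1 had 8 counts, against 28 with siCT in ethanol, a ratio of 0.229 (0.0901 to 0.515). LAMC3, a laminin gamma chain, had 1 count with siPRMT1 in ethanol, against 11 with siCT in ethanol, a ratio of 0.0728 (0.0017 to 0.501). In an edgeR fit without a count filter, adjusted p was 0.00303 for COL13A1 and 0.00565 for LAMA4 with R5020 in siPRMT1 cells, 0.0362 for COL13A1 and 0.031 for COL23A1 with R5020 in siCT cells, and 0.0215 for COL4A1 and 0.0206 for LAMC3 with siPRMT1 in ethanol. These genes were picked after their counts were seen.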
